A study of Mus musculus with 36 samples.

Results

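Liver of mice without the hepatocyte insulin receptor was compared between ZT8, in the second part of the light phase, and ZT12, when the lights go off. The comparison used 12 of the 36 single-colour Agilent mouse arrays of the series, 6 titled IRLKO_ZT12 and 6 titled IRLKO_ZT8, chosen by their titles. ZT is zeitgeber time, with lights on at ZT 0 and off at ZT 12. Each array held total liver RNA labelled with Cy3 from 1 sample of a male mouse, 11 weeks old and fed standard chow ad libitum. Apart from the tamoxifen-inducible genotype described below, the labels name no treatment. The knockout groups carried the genotype IRLKO, and the control groups used beside them, 6 arrays at ZT8 and 6 at ZT12, the genotype IRLWT, with the same sex, age, diet and lighting. In this line loxP sites flank exon 4 of Insr, and a tamoxifen-inducible Cre under the transthyretin promoter (TTR-CreTam), which is active in hepatocytes, removes that exon. Other liver cells keep the receptor gene, and the labels do not say when tamoxifen was given or whether the control mice carried Cre. Each array was numbered as a separate sample of its group, so the p-values measure only the spread between these samples.

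The circadian clock of liver cells is a loop of transcription factors. ARNTL (BMAL1) and CLOCK bind E-box sites and switch on the PER, CRY, CIART and NR1D1 repressors, while NR1D1 and the ROR receptors compete for RORE sites in Arntl, Nfil3 and Cry1. DBP, TEF and HLF carry the rhythm to metabolic genes through D-box sites. Feeding, and the insulin that follows it, reaches the same liver genes: insulin favours glycogen and fat synthesis, while in the fasted light phase PPARalpha drives fatty acid oxidation and ketone formation. ZT12 is the time at which mice begin to eat.

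A level is given here as the log2 of the background-corrected array intensity minus the 75th percentile of its own array, so that 0 is the brightness of the upper quartile of spots. A change is the level at ZT12 minus that at ZT8, from a limma model over all 36 arrays with wash batch as a covariate. A gene was called when its Benjamini-Hochberg adjusted p over all genes was under 0.05, and it is said to have risen or fallen only then. The bulk RNA of a whole liver piece does not distinguish fewer cells of a type from less RNA in each cell. Levels of different genes rest on different probes and are not compared with each other.

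The 75th percentile of intensity lay between 331 and 495 on the ZT8 knockout arrays and between 394 and 525 on the ZT12 knockout arrays, and 56.2% to 62.4% and 57.9% to 59.8% of spots were well above background. The Insr probe was well above background on all of these arrays, at levels of -3.54 to -2.94 at ZT8 and -3.95 to -3.29 at ZT12, all below the control arrays, where the lowest level was -1.86. Whether the probe lies within the deleted exon was not examined. Insr itself changed by -0.32 (SE 0.14, n = 6 and 6, limma adjusted p = 0.128) and by -0.42 without ZT8 replicate 3 (adjusted p = 0.0218). Markers of hepatocytes were abundant: mean levels at ZT12 were 10.09 for Alb, 8.25 for Ttr and 7.72 for Hnf4a, and of the 6 markers 2 were called, Tat and Hnf4a, both higher at ZT12 (changes of 0.94 and 0.52).

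ZT8 knockout replicate 3 stood apart from the other 5 ZT8 arrays. Over the 4316 genes called without it, a position was computed on a scale where 0 is the mean of the other ZT8 arrays and 1 the mean of the ZT12 arrays. Replicate 3 had a median position of 0.79 and was nearer to ZT12 for 65.2% of these genes, against medians of -0.06 to 0.24 and shares of 7.56% to 34.3% for the other arrays, each placed in the same way between its own time and the other. Its position was not the same for all genes. The mean of the 18 measured clock genes, which mixes rises and falls, was 0.86, among the ZT12 arrays (0.84 to 1.07). By clock role replicate 3 was not among them. For activators and genes under RORE control it was at 0.46 (other ZT8 arrays 0.46 to 0.91, ZT12 arrays 2.19 to 2.45). For repressors, at 0.06, it lay between the other ZT8 arrays (0.58 to 0.90) and ZT12 (-0.60 to -0.23). For output factors, at 4.17, it also lay between them (4.68 to 5.03 and 2.96 to 3.55). For fatty acid oxidation genes its mean, 3.65, was below every ZT12 array (3.70 to 4.00) and every other ZT8 array (4.28 to 5.05). Its means for fibroblast markers, 1.53, and for markers of dividing cells, -0.39, exceeded those of all other 11 knockout arrays, which reached 0.94 and -1.49, and its hepatocyte marker mean of 8.00 was the lowest of the 12. In a principal component analysis of the 12 arrays, component 2 (19.0% of the variance) placed it with the ZT8 arrays at -31.4, within their range of -35.6 to -17.9, while component 1 (28.0%) placed it at the extreme, 74.3. On component 1 ZT12 replicates 6 and 1 came next, at 48.8 and 36.3, with all remaining arrays at 1.69 or below. Their means for markers of dividing cells were -1.54 and -1.49, where the other ZT12 arrays were at -2.77 or below. Leaving out replicate 3 of ZT8 does not remove these arrays from the comparison. The part of these differences in the results was not tested, and counts for gene groups are given with and without replicate 3. Of 104 called genes examined singly, 103 were also called without it, Ncl being the exception, and 0 changed by more than 1.5 times.

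**Figure D1:**
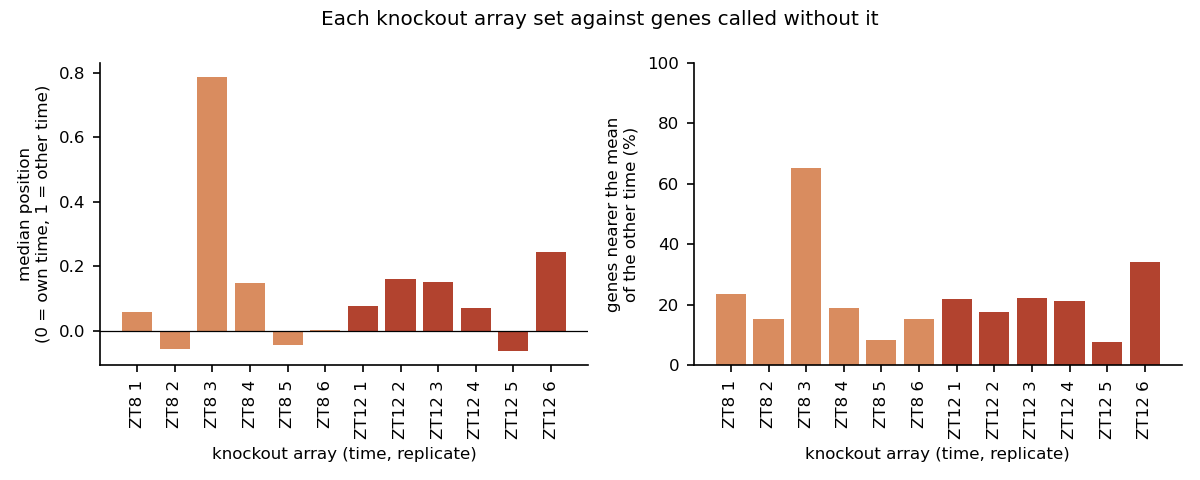
Bars give, for each of the 12 knockout arrays, its median position between the times (left; 0 is the mean of the other arrays of its own time and 1 the mean of the other time) and the percentage of genes on which it was nearer the mean of the other time (right), over the genes called without that array. ZT8 replicate 3 stands at 0.79 and 65.2%, while the other 11 arrays lie between -0.06 and 0.24 and between 7.56% and 34.3%.

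Of 22884 genes tested, 3033 (13.3%) were called between ZT8 and ZT12 in knockout liver, 1543 higher (6.74%) and 1490 lower (6.51%) at ZT12. Without replicate 3 the count was 4316 (18.9%), 2020 higher (8.83%) and 2296 lower (10%), and 2843 genes were called both ways, all with the same sign. Most changes were small: the median size among called genes was 0.48 on the log2 scale, and 345 changed at least 2-fold (149 higher, 196 lower). For 1001 genes (4.37%) the 6 ZT12 and 6 ZT8 arrays did not overlap, and 914 of these were called. For a gene without overlap the exact two-sided permutation p over the 12 arrays is 0.002165, the smallest that 6 against 6 can give. The 12 arrays lay in 3 wash batches that were unevenly split, with 2, 1 and 3 ZT8 arrays and 2, 3 and 1 ZT12 arrays. Of the called genes, 95.4% had the sign of the fit within every batch. These genes were called on the same arrays, so this share does not test for a batch effect. When only the 12 arrays were fitted, so that their spread was not shared with the other 24, 615 genes were called, 286 higher (1.25%) and 329 lower (1.44%), and 4308 had an unadjusted p under 0.05. Without replicate 3 that fit called 2471. Counts from this narrower fit are given with each gene group, and the shares of all genes given here are the background of those counts.

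Most clock genes changed between the 2 times. Of 18 measured, 5 rose and 10 fell, with or without replicate 3, where 6.74% of all genes rose and 6.51% fell (8.83% and 10% without it), and 5 rose and 5 fell when only the 12 arrays were fitted. Their median change was -0.49 (-0.62 without replicate 3), against a median of 0.00 over all genes. By role, 4 of 5 activators and genes under RORE control rose, and 7 of 10 repressors and all 3 output factors fell. The 7 include Bhlhe41, which was not well above background on any of the 12 arrays. Cry1 was the repressor that rose, and Per1, Per2 and Rora were not called. Short stretches of promoter are shown for 3 genes that rose, Arntl, Nfil3 and Cry1, and for Ciart, which fell, because they hold the sites through which the loop is known to act. They are RefSeq sequence on GRCm38.p6, read on the gene's strand, with the matched motif in capitals and positions counted from the transcription start.
Arntl: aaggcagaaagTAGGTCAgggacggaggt
Nfil3: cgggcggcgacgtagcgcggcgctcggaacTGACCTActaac
Cry1: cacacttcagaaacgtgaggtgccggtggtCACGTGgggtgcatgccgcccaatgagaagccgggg
Ciart: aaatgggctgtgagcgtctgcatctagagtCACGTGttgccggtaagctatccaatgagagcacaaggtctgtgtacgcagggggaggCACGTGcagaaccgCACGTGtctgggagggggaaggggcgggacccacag
The Arntl stretch (chr7:113207530-113207558, plus strand) holds TAGGTCA at position 31 after the start, and the Nfil3 stretch (chr13:52981040-52981081, minus strand) holds the same site on the opposite strand, as TGACCTA, at position -12. The Cry1 stretch (chr10:85185079-85185144, minus strand) holds 1 E-box CACGTG at position -60, and the Ciart stretch (chr3:95882237-95882374, minus strand) holds 3, at -116, -58 and -44. On either strand of windows from 250 bases before to 50 after the start, the RORE (TAGGTCA or TGGGTCA) was in 2 of the 17 promoters of 13 called clock genes with a promoter in the table, or 11.8%, against 6.45% of all 32851 promoters. The E-box was in 5, or 29.4% (the dim Bhlhe41, Ciart, Cry1 and Tef), against 7.15%, and the D-box (TTATGTAA or TTATGCAA) in 1, or 5.88% (Per3), against 1.66%. Of the 5 promoters with an E-box 2 are of Tef. The clock list was drawn up by roles that include RORE control, so these shares are only a description. These are matches of letters, not measured binding.

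Arntl, the core activator, rose. Its level was -6.79, -5.04 and -3.98 (lowest, median and highest) at ZT8, where only 2 of 6 arrays were well above background, and -1.22, -0.64 and -0.31 at ZT12. Every ZT12 array was above every ZT8 array. The change was 4.48 (SE 0.34, limma adjusted p = 1.99e-10; 4.76 without replicate 3), and the probe lies at chr7:120456978-120457037 on mm9. Because the ZT8 signal was dim, the size depended on the background correction: it was 1.90 with normexp and 2.62 in the authors' deposited values. Clock, its partner, rose from 0.36, 0.62 and 0.82 to 1.21, 1.39 and 1.52 without overlap, a change of 0.73 (SE 0.08, adjusted p = 5.04e-07; 0.74 without replicate 3).

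Nfil3, a repressor acting at D-box sites, had levels of 0.34, 1.79 and 2.06 at ZT8, the lowest on replicate 3 and the other 5 arrays from 1.63 upward. At ZT12 they were 3.02, 3.18 and 3.63, again without overlap, a change of 1.67 (SE 0.19, adjusted p = 5.62e-07; 1.41 without replicate 3). Rora, a ROR receptor gene, was not called (-0.17, adjusted p = 0.221). Cry1, a repressor known to act late in the cycle, rose from -4.73, -3.91 and -3.64 to -2.42, -1.97 and -1.61. The groups did not overlap, and the change was 2.04 (SE 0.21, adjusted p = 8.86e-08; 1.93 without replicate 3, 0.95 with normexp and 1.34 in the authors' deposited values).

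Among repressors, Nr1d1 (REV-ERBalpha), which silences Arntl, fell most. Its level was 0.19, 0.42 and 0.97 at ZT8 and -3.81, -3.38 and -2.99 at ZT12, so that all ZT12 arrays lay far below all ZT8 arrays. The change was -3.89 (SE 0.26, adjusted p = 1.43e-11; -3.95 without replicate 3), or 14.8-fold lower. Nr1d2, its paralog, fell by 1.29 (adjusted p = 7.74e-06; -1.37 without replicate 3). Ciart (CHRONO), a repressor of the activator pair, fell from -0.93, -0.58 and -0.19 to -4.59, -3.66 and -3.46, a change of -3.09 (SE 0.30, adjusted p = 3.35e-08; -3.15 without replicate 3 and -1.79 with normexp). The period genes did not move together. Per3 fell by 0.91 (adjusted p = 0.000327), but was not called when only the 12 arrays were fitted (0.052) and stood at -0.01 in the authors' deposited values. Per1 and Per2 were not called, with changes of -0.07 (adjusted p = 0.887) and 0.26 (0.336). Cry2 and Bhlhe40 fell by 0.40 and 0.71 and were not called in the fit of 12 arrays (adjusted p = 0.0832 and 0.06), and Cry2 changed by -0.11 over the mean of its probes (adjusted p = 0.683). Bhlhe41, the other DEC factor and the last of the 10 lower calls, was not well above background on any of the 12 arrays, so it has no measured size. Its call was lost with normexp (limma adjusted p = 0.0532) and in the fit of 12 arrays.

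All 3 output factors fell. Dbp had levels of 5.98, 6.59 and 6.77 at ZT8 and 2.83, 3.36 and 3.79 at ZT12, without overlap, a change of -3.12 (SE 0.25, adjusted p = 3.88e-10; -3.23 without replicate 3) or 8.70-fold. Tef fell by 0.89 (adjusted p = 1.12e-05; -1.01 without replicate 3), from 6.24, 6.98 and 7.14 to 5.75, 5.94 and 6.17. Hlf fell by 0.58 (adjusted p = 0.0159), a call lost without ZT12 replicate 1 (-0.49, adjusted p = 0.0571), ZT8 replicate 2 (-0.44, 0.0718) or ZT8 replicate 5 (-0.54, 0.0534), and in the fit of 12 arrays (0.155).

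**Figure D2:**
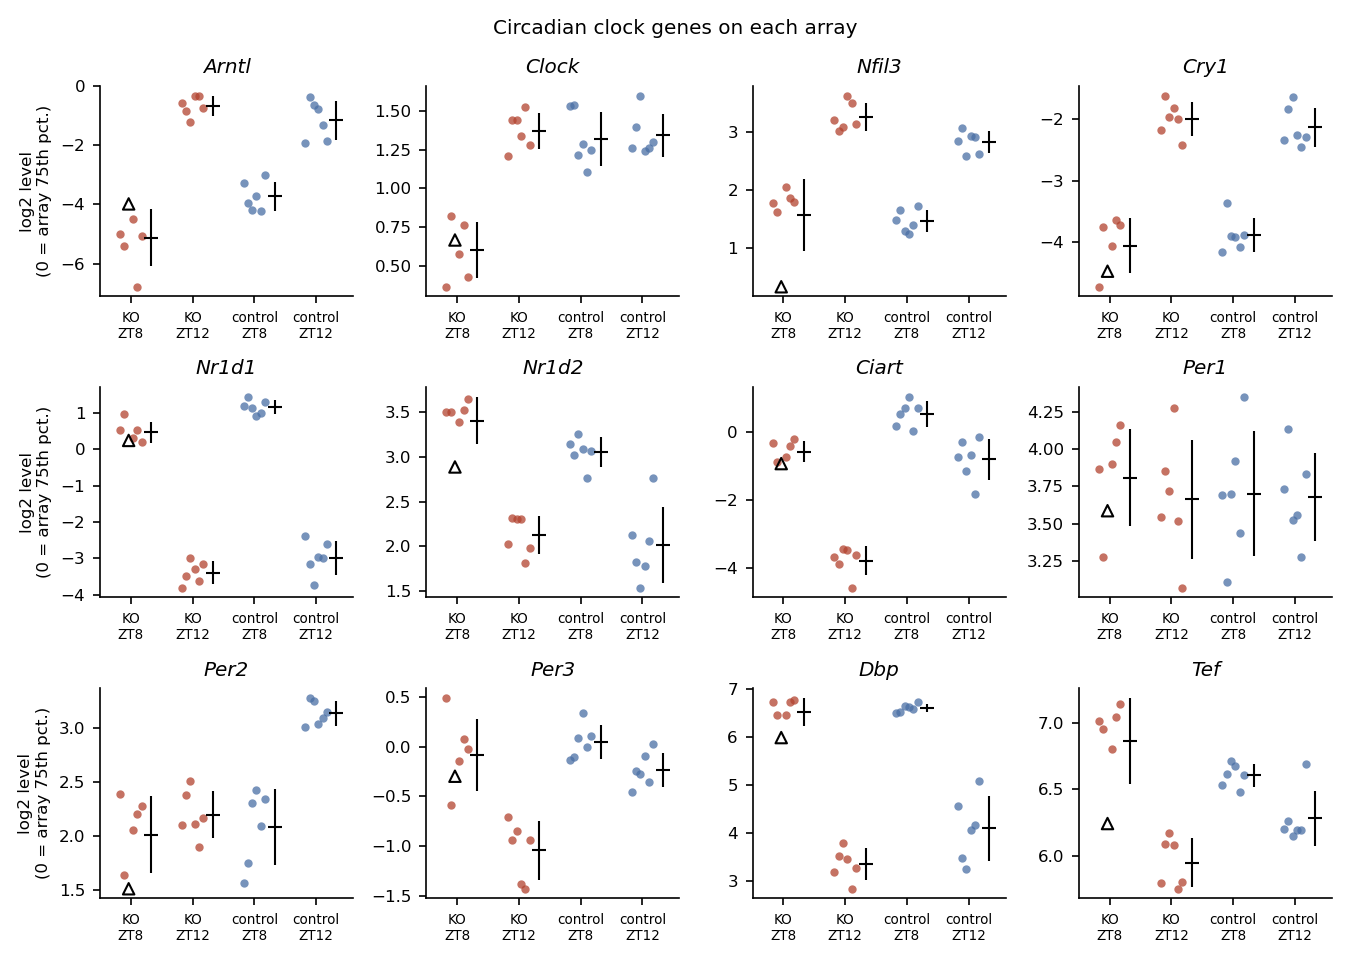
Levels (log2 intensity minus the array's 75th percentile) of clock genes on each knockout (KO) and control array at ZT8 and ZT12, with bars for the mean ± SD of 6 arrays and an open triangle for ZT8 knockout replicate 3. Arntl, Clock, Nfil3 and Cry1 were higher at ZT12 and Nr1d1, Ciart, Dbp and Tef lower, without overlap between the knockout times.

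Outside the clock, the largest rise among genes well above background on all 12 arrays was that of Ddit4 (REDD1), a stress-induced inhibitor of mTORC1. Its level was 0.53, 1.00 and 2.42 at ZT8, the highest on replicate 3, and 3.28, 3.93 and 4.43 at ZT12. The arrays did not overlap, and the change was 2.77 (SE 0.36, limma adjusted p = 3.54e-06; 3.08 without replicate 3), or 6.80-fold. Eif4ebp3, a translation repressor of the 4E-BP family, rose by 1.91 (adjusted p = 1.76e-06; 1.87 without replicate 3), with every ZT12 array above every ZT8 array. The histone genes H3c15 and H1f2 rose by 2.00 (adjusted p = 4.43e-07) and 1.92 (adjusted p = 8.16e-05). H3c15 did not overlap, and H1f2 overlapped only through replicate 3, at 2.06 against a ZT12 range of 1.75 to 3.77. Histone genes have close copies, and the array cannot show how far these share a probe's signal. Ypel2 and Abtb2 rose with little spread, by 1.84 (SE 0.17, adjusted p = 4.66e-09) and 1.68 (SE 0.13, adjusted p = 2.79e-10), and by 1.84 and 1.63 without replicate 3. Cyp26a1, which degrades retinoic acid, rose by 1.82 (adjusted p = 0.0057), and Nat8f5 and the unnamed transcript Gm32280 by 2.13 and 2.02. The normexp values of Nat8f5 and Gm32280 were 0.92 and 1.13, and Nat8f5 was at 1.34 in the authors' deposited values.

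Txnip, a glucose-responsive inhibitor of thioredoxin and glucose uptake, had the next largest fall after Nr1d1, Dbp and Ciart among genes well above background on all 12 arrays. Its level was 4.21 on ZT8 replicate 3 and 6.15 to 7.14 on the other 5 ZT8 arrays, against 2.72, 3.29 and 3.67 at ZT12. No ZT12 array reached any ZT8 array, and the change was -2.86 (SE 0.29, adjusted p = 5.62e-08; -3.27 without replicate 3), or 7.27-fold. Klf10, a clock- and glucose-linked factor, fell by 2.46 (adjusted p = 2.10e-07; -2.64 without replicate 3), from 1.58, 2.64 and 3.15 to -0.44, 0.09 and 0.42. Nr4a2, an orphan nuclear receptor, fell by 2.63 (adjusted p = 0.00021; -3.20 without replicate 3), though replicate 3 at -1.89 lay inside its ZT12 range of -2.54 to -0.64. Rgs16, a regulator of G-protein signals, fell by 2.41 (SE 0.72, adjusted p = 0.0245). At ZT12 it was 1.06 on replicate 1 and 3.52 to 4.50 on the rest, and its call was lost without that array (-1.91, adjusted p = 0.0901) or without ZT8 replicate 2 (-2.08, 0.0785). The P450 gene Cyp2g1 fell by 2.43 (adjusted p = 6.94e-05; -1.36 with normexp) and the transcript Gm26588 by 2.73 (adjusted p = 3.08e-05). Nr4a2, Rgs16 and Gm26588 were not called when only the 12 arrays were fitted (adjusted p = 0.0592, 0.0791 and 0.0563).

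A few genes were well above background at only one of the times, so that the size is a bound: Zbtb21 was at least 2.03-fold and Fbxw15 at least 1.75-fold higher at ZT12, and Gm16246 at least 2.02-fold lower (limma adjusted p = 2.44e-05, 0.0114 and 0.00612). The bound sets the mean of the bright group against the dimmest signal well above background on each array of the dim group. With normexp the calls of Zbtb21 and Fbxw15 were lost (adjusted p = 0.0588 and 0.364).

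Of 28 genes of fatty acid oxidation measured, 8 fell and none rose with all arrays, where 6.51% of all genes fell. Without replicate 3, 19 fell and none rose, where 10% of all genes fell, and 2 fell when only the 12 arrays were fitted. Their median change was -0.33 (-0.38 without replicate 3), and 26 of 28 estimates were below 0. By role, 1 of 7 genes of fatty acid uptake and the carnitine shuttle fell (3 without replicate 3), 2 of 11 oxidation enzymes (10 without replicate 3) and 4 of 8 genes of ketone formation and fuel choice (5 without replicate 3). Within the wash batches the medians were -0.28, -0.38 and -0.41. In the mean of these 28 levels replicate 3 was the lowest of the ZT8 arrays and the only one not above the ZT12 range.

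Ppara, the receptor that drives this programme, had levels of 5.04, 5.92 and 6.49 at ZT8 and 4.92, 5.20 and 5.49 at ZT12. Only replicate 3, at 5.04, lay within the ZT12 range, the other 5 ZT8 arrays being at 5.74 or more. The change was -0.68 (SE 0.15, limma adjusted p = 0.002) and -0.89 without replicate 3 (adjusted p = 8.65e-07). Creb3l3 (CREBH), the liver factor that works with PPARalpha on fasting genes, fell by 0.59 (adjusted p = 0.00283; -0.79 without replicate 3). Fgf21, the fasting hormone both factors induce, fell from -3.63, -2.39 and -0.60 to -7.40, -4.69 and -4.18, without overlap. It was well above background on all ZT8 arrays and on 3 of 6 at ZT12, and the change was -2.91 (SE 0.53, adjusted p = 0.000333; -1.17 with normexp and -1.55 in the authors' deposited values). When only the 12 arrays were fitted, Ppara, Creb3l3 and Fgf21 were not called (adjusted p = 0.117, 0.149 and 0.0785).

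Bdh1, which makes the ketone body beta-hydroxybutyrate, fell from 5.67, 6.15 and 6.45 to 5.08, 5.38 and 5.42 without overlap. Its change was -0.81 (SE 0.10, limma adjusted p = 3.79e-06; -0.91 without replicate 3), and it held in the fit of 12 arrays (0.0236). Cpt2 of the carnitine shuttle fell by 0.31 (adjusted p = 0.0152), a call lost without ZT8 replicate 2 or over the mean of its probes. The acyl-CoA dehydrogenase Acadl fell by 0.26 (adjusted p = 0.0488; -0.36 without replicate 3), a call lost on leaving out any one of 10 other arrays. Cpt1a, which admits fatty acids to mitochondria, was not called (-0.11, adjusted p = 0.681). Cyp4a14, a fatty acid omega-hydroxylase and textbook PPARalpha target, spanned -1.66 to 0.90 on 5 ZT8 arrays, -3.98 on replicate 3 and -4.67 to -3.29 at ZT12. Its change was -2.77 (SE 0.79, adjusted p = 0.0163; -3.36 without replicate 3 and -1.58 with normexp), a call lost without ZT8 replicate 2 (-2.24, adjusted p = 0.0675) or 5 (-2.51, 0.0609). Hadhb and Acadm, enzymes of mitochondrial beta-oxidation, were called only without replicate 3, at -0.39 and -0.26 (adjusted p = 0.00101 and 0.00532).

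The acyl-CoA thioesterases, which release free fatty acids from their CoA esters, had 4 of 11 members lower and none higher (6 lower without replicate 3, 1 when only the 12 arrays were fitted), with a median of -0.45 (-0.31 without replicate 3). The share of all genes that fell was 6.51% (10% without replicate 3). The 4 lower members were Acot2, Acot3, Acot4 and Acot5, neighbouring paralogs on chromosome 12 whose similar sequence can share probe signal. Acot2, the mitochondrial member, had levels of 0.40, 0.98 and 3.14 at ZT8, the highest on replicate 2, and -1.51, -0.86 and -0.34 at ZT12. The groups did not overlap, and the change was -2.02 (SE 0.33, limma adjusted p = 0.000106; -2.24 without replicate 3). Acot3 fell by 1.92 (adjusted p = 0.00651; -2.33 without replicate 3), Acot4 by 0.78 (adjusted p = 0.0107) and Acot5 by 1.45 (adjusted p = 0.0115; lost without ZT8 replicate 2, at -1.05 with adjusted p = 0.0528, and -0.84 over the mean of its probes), each with overlap through replicate 3. These last 3 were not called in the fit of 12 arrays (adjusted p = 0.101, 0.146 and 0.173).

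**Figure D3:**
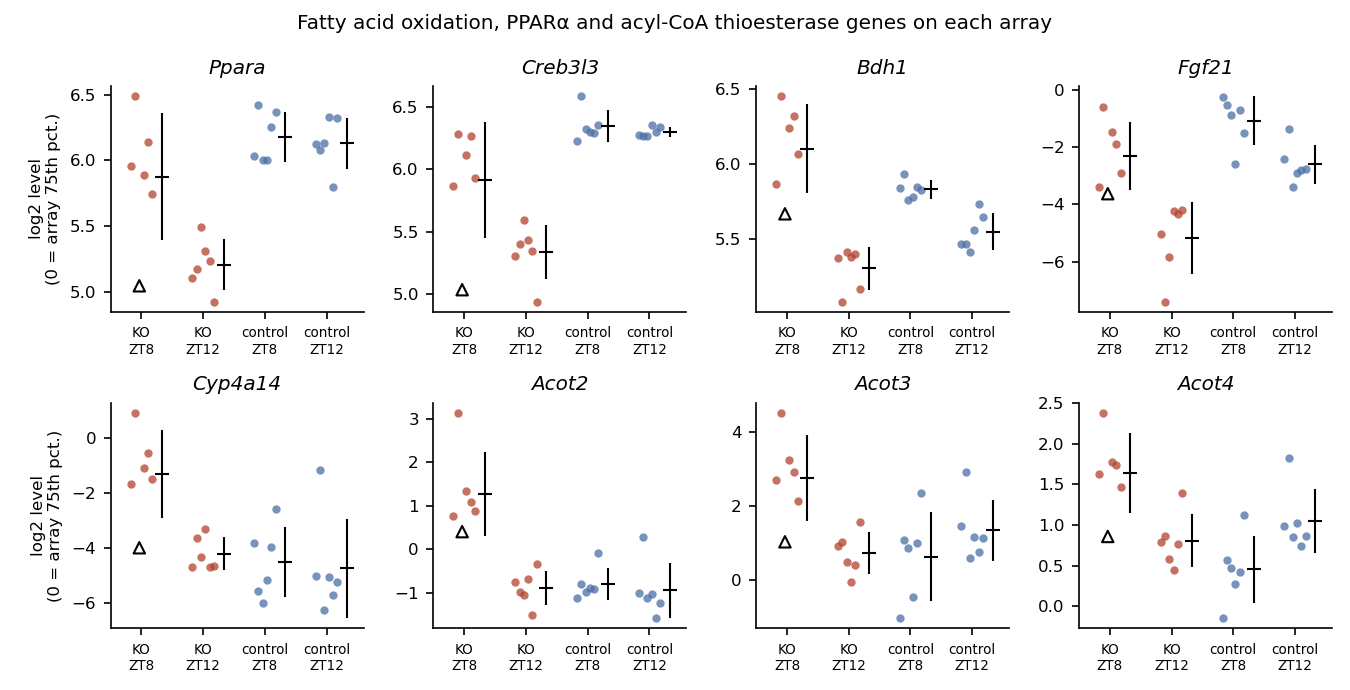
Levels (log2 intensity minus the array's 75th percentile) of genes of fatty acid oxidation and thioesterases on each knockout (KO) and control array at ZT8 and ZT12, with bars for the mean ± SD of 6 arrays and an open triangle for ZT8 knockout replicate 3. Ppara on replicate 3 (5.04) sits within the ZT12 knockout range of 4.92 to 5.49, below the other ZT8 arrays.

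Of 16 chaperones of the heat shock response, 7 rose and none fell, with or without replicate 3, where 6.74% and 8.83% of all genes rose, and 1 rose when only the 12 arrays were fitted. Their median change was 0.36 (0.37 without replicate 3). Hsph1, an HSP110 co-chaperone, rose from 1.61, 2.22 and 2.63 to 2.90, 3.23 and 3.73, without overlap, by 1.11 (SE 0.17, limma adjusted p = 4.17e-05; 1.13 without replicate 3), and was the member called in the fit of 12 arrays (0.0234). Hspa8, the constitutive HSC70, and Hsp90aa1, an HSP90 of the cytosol, rose by 0.45 (adjusted p = 0.00146) and 0.50 (adjusted p = 0.00836), with adjusted p = 0.114 and 0.181 in the fit of 12 arrays. The inducible Hspa1a, whose coding sequence is nearly shared with Hspa1b, rose by 1.58 (adjusted p = 0.0125; 1.02 with normexp), while Hspa1b was not called (0.84, adjusted p = 0.137). Fkbp4 and Stip1 were also called. The call of Fkbp4 was lost on leaving out any one of 8 arrays and under 9 other alternatives, and that of Stip1 over the mean of its probes. The heat shock element GAANNTTC was in 4 of 7 promoters of the 5 called chaperones in the table, or 57.1% (Fkbp4, Hspa1a and Hsph1), against 7.86% of all promoters. Overlapping windows of Hsph1 that hold the same site count among the 4. The list was drawn up as chaperones driven by HSF1, the heat shock factor, so this share is only a description. The element lies at position -104 of Hspa1a (chr17:34972223-34972290, minus strand, GRCm38.p6), shown as the site of the member with the largest change, with the element in capitals.
Hspa1a: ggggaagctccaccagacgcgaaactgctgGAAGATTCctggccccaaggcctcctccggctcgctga
The cold-inducible RNA-binding proteins, which follow body temperature the other way, had 0 of 3 called by limma, with 2 at an unadjusted p under 0.05, Cirbp at -0.37 (adjusted p = 0.0753) and Rbm3 at 0.20 (adjusted p = 0.124; 0.0448 without replicate 3).

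Glucocorticoids peak in mice near lights-off, but the hormone was not measured here and its part in these values was not tested. Of 16 glucocorticoid-responsive genes 6 rose and none fell (7 rose without replicate 3, 3 when only the 12 arrays were fitted). The share of all genes that rose was 6.74% (8.83% without replicate 3). The list's median change was 0.81 (0.79 without replicate 3), with batch medians of 0.80, 0.79 and 0.08. Tsc22d3 (GILZ), a direct receptor target, rose from 3.27, 3.44 and 3.76 to 3.99, 4.27 and 4.49 without overlap, by 0.92 (SE 0.21, limma adjusted p = 0.00354; 0.96 without replicate 3). Tat, an amino acid-degrading enzyme induced by the hormone, rose by 0.94 (adjusted p = 0.00048; 0.97 without replicate 3), also without overlap. Fkbp5, the receptor's co-chaperone, Zbtb16 and the kinase Sgk1 rose by 0.80 (adjusted p = 0.0316), 1.33 (0.00963) and 1.14 (0.00636), and Ddit4 also belongs to this list. Tat, Sgk1 and Fkbp5 were not called in the fit of 12 arrays (adjusted p = 0.0613, 0.179 and 0.243), and the call of Fkbp5 was lost on leaving out any one of 6 arrays. Per1, another target, was not called.

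Chaperones and folding enzymes of the endoplasmic reticulum rose in part. Over all genes 6.74% rose and 6.51% fell (8.83% and 10% without replicate 3). Of 22 genes of the unfolded protein response, 5 rose and 1 fell (7 and 1 without replicate 3, 3 and 1 in the fit of 12 arrays), with a median of 0.12. All 5 that rose were among the 14 lumenal proteins: Manf, Creld2, Hspa5, Dnajc3 and Dnajb11. The probes of Dnajb11 disagreed: its change was 0.40 on the main probe and -0.57 over the mean of its probes (adjusted p = 0.0032), another probe bright on all 12 arrays being lower at ZT12 by 2.24, and its call was lost on leaving out any one of 7 arrays. Manf, a secreted stress-induced factor, went from 1.87, 1.97 and 3.39 to 3.15, 3.64 and 4.21, with replicate 3 the only ZT8 array within the ZT12 range. Its change was 1.40 (SE 0.22, limma adjusted p = 5.68e-05; 1.66 without replicate 3). Hspa5 (BiP), the main chaperone of the compartment, rose by 0.79 (adjusted p = 0.000361; 0.90 without replicate 3) without overlap, and Creld2 by 1.18 (adjusted p = 0.00327; 0.0568 in the fit of 12 arrays). The gene that fell was Trib3, a stress-induced pseudokinase that binds AKT, from 2.69, 3.27 and 3.46 to 1.18, 2.08 and 2.70, a change of -1.27 (SE 0.26, adjusted p = 0.00112). Replicate 3, at a list mean of 3.43, lay above the other ZT8 arrays (2.95 to 3.11) and within the ZT12 arrays (3.26 to 3.56).

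Of 27 measured genes of fatty acid and triglyceride synthesis 2 rose and 3 fell, with a median change of 0.06. Without replicate 3 the counts were 3 and 5, and in the fit of 12 arrays 2 and 0. Of all genes 6.74% rose and 6.51% fell (8.83% and 10% without replicate 3). The list counts with all arrays are near these shares. Agpat2, which acylates lysophosphatidic acid, rose from 5.09, 5.23 and 5.41 to 5.62, 5.75 and 6.00, without overlap (0.57, SE 0.09, limma adjusted p = 3.54e-05; 0.55 without replicate 3). Malic enzyme (Me1), which supplies NADPH, fell by 1.30 (adjusted p = 0.000479; -1.47 without replicate 3), acetyl-CoA carboxylase (Acaca) by 0.62 (adjusted p = 0.00332) and the first acyltransferase, Gpam, by 0.68 (adjusted p = 0.035; lost on leaving out any one of 6 arrays). Fasn and Srebf1 were not called, at 0.12 (adjusted p = 0.814) and 0.49 (0.0937). Of 24 cholesterol genes 2 rose and 1 fell (3 and 1 without replicate 3, none in the fit of 12 arrays, where 3 had an unadjusted p under 0.05). With all arrays these counts are also near the shares of all genes. The sterol transport protein Stard4 fell by 0.51 (adjusted p = 0.000509). The call of Mvd (1.00, adjusted p = 0.0431) was lost on leaving out any one of 8 arrays, with adjusted p up to 0.119, and in the fit of 12 arrays (0.282).

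FoxO is the factor that insulin signalling holds out of the nucleus. Calls among its targets and the gluconeogenic enzymes were about as frequent as over all genes. Of all genes 6.74% rose and 6.51% fell (8.83% and 10% without replicate 3). Of 17 genes of gluconeogenesis and FoxO signalling 1 rose, Sesn1 (0.31, limma adjusted p = 0.0208; 0.0541 and 0.0709 without ZT8 replicates 4 and 5), and 1 fell, Txnip, with or without replicate 3, and Txnip alone was called in the fit of 12 arrays. None of 6 gluconeogenic enzymes was called by limma in the fit of all arrays: G6pc changed by 0.00 (adjusted p = 0.997) and Pck1 by 0.17. Igfbp1, a classic insulin-repressed gene, changed by 0.82 (adjusted p = 0.299). Of 12 genes of glycogen metabolism 6 fell and 1 rose, with or without replicate 3, and the median change was -0.38 (-0.42 without it). In the fit of only the 12 arrays limma called none, with 7 at an unadjusted p under 0.05. The 6 were 4 of 5 breakdown genes, Pygl, Phka2 and Gaa among them, and 2 of 7 synthesis genes, Gys2 and Ugp2. The call of Gaa (-0.20) was lost on leaving out any one of 7 arrays, and over the mean of its probes it was -0.04. Liver phosphorylase, Pygl, went from 5.90, 6.63 and 6.94 to 5.72, 6.10 and 6.23, the lowest ZT8 value being replicate 3 (-0.49, SE 0.12, adjusted p = 0.00378; -0.62 without replicate 3). Ugp2, which makes UDP-glucose, fell by 0.71 (adjusted p = 0.000394) and glycogen synthase, Gys2, by 0.44 (adjusted p = 0.0251; lost on leaving out any one of 6 arrays, and -0.62 without replicate 3, adjusted p = 2.08e-05). Ppp1r3b, which brings a phosphatase to glycogen and promotes its synthesis, was the member that rose (0.43, adjusted p = 0.0122).

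Bile acid genes were counted by role, where 6.74% of all genes rose and 6.51% fell (8.83% and 10% without replicate 3). None of 9 synthesis genes was called, among them Cyp7a1, the rate-limiting enzyme (0.53, limma adjusted p = 0.382). Of 7 genes of transport and regulation 1 rose and 4 fell, with or without replicate 3, and 1 fell in the fit of 12 arrays. Abcb11 (BSEP), which exports bile acids, went from 6.29, 6.88 and 7.10 to 5.80, 5.99 and 6.26, just without overlap. Its change was -0.84 (SE 0.12, adjusted p = 1.64e-05). Nr1h4 (FXR), the bile acid receptor, fell by 0.76 (adjusted p = 0.000282; 0.0777 in the fit of 12 arrays) and its target Nr0b2 (SHP) rose by 1.24 (adjusted p = 0.0112; 0.0555 in the fit of 12 arrays). The phospholipid exporter Abcb4 and the uptake carrier Slco1b2 fell by 0.49 (adjusted p = 0.0369) and 0.51 (0.0185), but the call of Abcb4 was lost on leaving out any one of 8 arrays. Slco1b2 changed by -0.03 over the mean of its probes (adjusted p = 0.949), another of its bright probes being higher at ZT12 by 0.51, and was not called without ZT12 replicate 1 or ZT8 replicate 2 or 5 (adjusted p = 0.0696 to 0.0778).

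In insulin signalling itself 5 of 16 genes fell and none rose (7 fell and 1 rose without replicate 3, 2 fell in the fit of 12 arrays), with a median of -0.20 (-0.31 without replicate 3). Among all genes 6.51% fell and 6.74% rose (10% and 8.83% without replicate 3). Irs1, a receptor substrate, had levels of 1.43, 2.45 and 2.71 at ZT8 and 1.22, 1.35 and 1.70 at ZT12. Replicate 3 alone, at 1.43, lay inside the ZT12 range, and the other ZT8 arrays were at 2.34 or more. The change was -0.96 (SE 0.15, limma adjusted p = 7.82e-05; -1.14 without replicate 3). Grb14, an adaptor that inhibits the insulin receptor, fell by 0.71 (adjusted p = 0.000249; -0.44 over the mean of its probes), and was not called in the fit of 12 arrays (0.0502). Gsk3b, a kinase that restrains glycogen synthase, fell by 0.43 (adjusted p = 0.00128; -0.23 over the mean of its probes), and Trib3 and Tsc1 (lost on leaving out any one of 4 arrays) complete the 5. Irs2, the FoxO-controlled substrate, was not called (-0.26, adjusted p = 0.654).

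Smaller groups are counted beside the shares of all genes, of which 6.74% rose and 6.51% fell (8.83% and 10% without replicate 3). Of 21 genes of amino acid breakdown and the urea cycle 3 rose and 1 fell (3 and 3 without replicate 3, 1 and 0 in the fit of 12 arrays). The serine dehydratase Sds rose by 1.02 (limma adjusted p = 0.00182), Nags, which makes the activator of the urea cycle, by 0.61 (adjusted p = 4.96e-05), without overlap, and Arg1 by 0.48 (adjusted p = 0.0268), while Cbs fell by 0.43 (adjusted p = 0.0105). Of these Nags was the one called in the fit of 12 arrays (0.0354), and the call of Arg1 was lost on leaving out any one of 7 arrays, with adjusted p up to 0.11. Of 18 nucleolar factors of ribosome biogenesis 4 rose (3 without replicate 3, 1 in the fit of 12 arrays), led by Rrp12 at 0.93 (adjusted p = 8.96e-05), which was the one called in the fit of 12 arrays. The call of Polr1a (0.30, adjusted p = 0.0497) was lost on leaving out any one of 10 arrays, and that of Ncl (0.26, 0.0354) any one of 5, replicate 3 among them. Of 10 autophagy genes 4 fell and 1 rose (5 and 1 without replicate 3, 1 and 0 in the fit of 12 arrays). Ulk1, the kinase that starts autophagy, fell from 5.23, 5.48 and 5.75 to 4.81, 4.93 and 5.15, without overlap (-0.55, SE 0.10, adjusted p = 0.000537). Atg14 and Atg7, which act in building the autophagosome, fell by 0.53 and 0.39, and Map1lc3b, its membrane protein, rose by 0.32 (0.16 over the mean of its probes). The call of Atg7 was lost without ZT12 replicate 6 (adjusted p = 0.0653) or ZT8 replicate 5 (0.0852). Of 10 immediate early genes 2 fell, Junb (-0.53, adjusted p = 0.0337) and Ier3 (-0.60, 0.0396), calls lost on leaving out any one of 6 and 8 arrays, with none called by limma in the fit of 12 arrays and 3 there at an unadjusted p under 0.05. Of 14 drug metabolism genes 1 rose, Cyp3a13 (0.56, adjusted p = 0.0023), with none called by limma in the fit of 12 arrays and 1 there at an unadjusted p under 0.05. A count of 1 in 14 is near the share of all genes that rose.

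**Figure D4:**
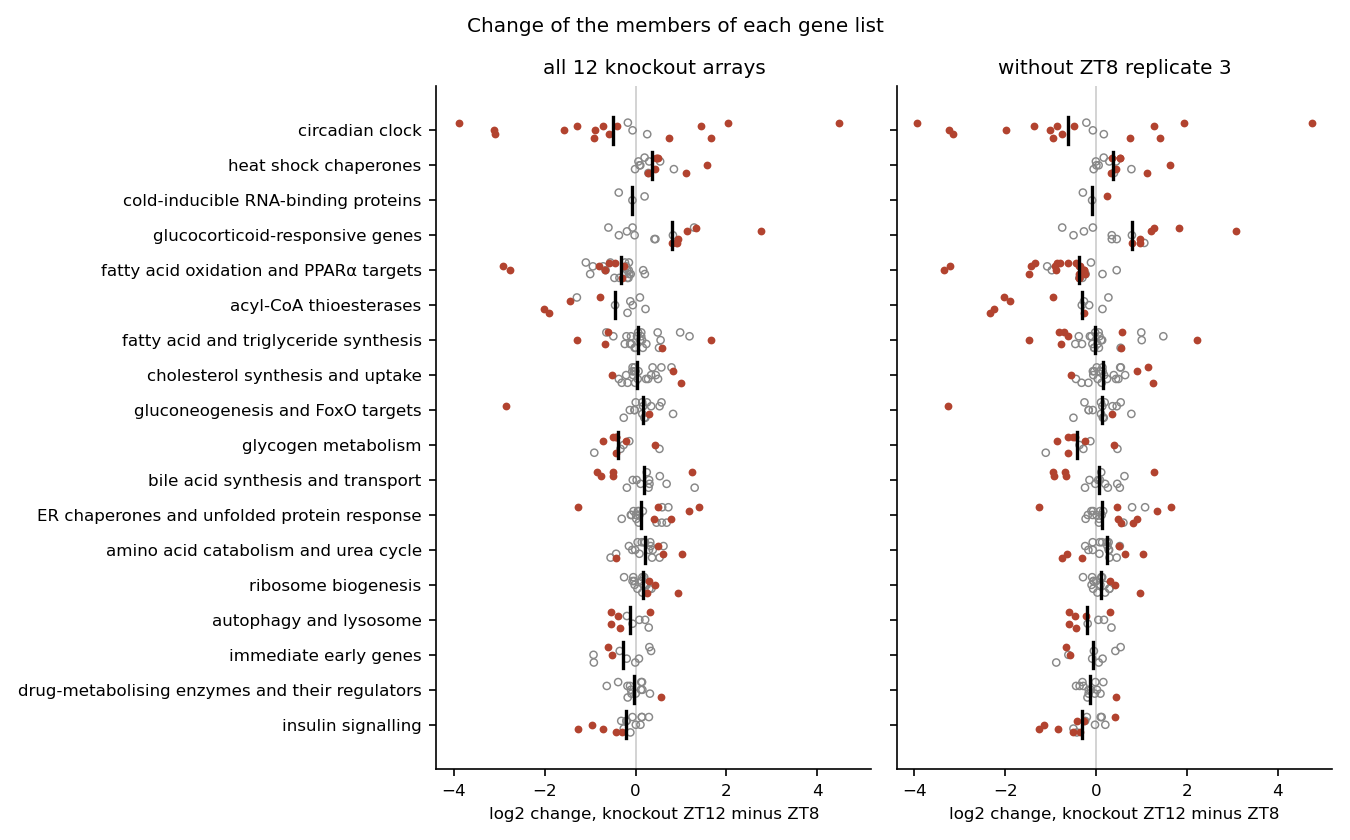
Change from ZT8 to ZT12 (log2) in knockout liver of each measured gene of each list, with all 12 knockout arrays (left) and without ZT8 replicate 3 (right). Filled points are called genes, open points genes not called and black bars list medians, as for fatty acid oxidation at -0.33 (left) and -0.38 (right) and heat shock chaperones at 0.36 (left).

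The same interval was measured in control liver, where 1757 genes were higher (7.68%) and 1639 lower (7.16%) at ZT12. Of the 3033 knockout calls 1284 were called in controls with the same sign, 42.3% of the knockout calls and 37.8% of the control calls. Testing the difference between the knockout and control change called 287 genes (1.25%), and 942 (4.12%) without replicate 3. Of the 18 clock genes 4 were called for it (Clock, Arntl, Ciart and the dim Bhlhe41). Without replicate 3, 3 clock genes were called more positive in knockout and 4 more negative, 2 of the 3 output factors among the latter. Of the 28 fatty acid oxidation genes 1 was called, Cpt2 (difference -0.49, limma adjusted p = 0.0373, lost on leaving out any one of 6 arrays). Without replicate 3 it was 10, all more negative in knockout. Of 11 thioesterases 3 were called, and 7 without replicate 3. With all arrays no difference was called for most of the main clock genes. Nr1d1 changed by -4.13 in controls (difference 0.24, adjusted p = 0.846) and Dbp by -2.50 (difference -0.62, adjusted p = 0.468).

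Clock was the clearest exception within the clock. Its control change was 0.02 against 0.73 in knockout, a difference of 0.71 (limma adjusted p = 0.00171) that remained called under every alternative tried. The alternatives left out knockout arrays in turn but no control array. At ZT8 control levels were 1.11, 1.27 and 1.54, all above the 6 knockout arrays, which reached 0.82. Arntl changed by 2.58 in controls, a difference of 1.90 (adjusted p = 0.0373), with control levels of -4.21, -3.84 and -2.99 at ZT8, and Ciart by -1.34, a difference of -1.75 (adjusted p = 0.0347). Both differences were lost on leaving out any one of 5 arrays for Arntl and of 6 for Ciart, with normexp and in the authors' deposited values. For Per2, which rose by 1.05 in controls, the difference was -0.80 (adjusted p = 0.0694; 0.0211 without replicate 3).

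In control liver 2 of the 11 thioesterases rose and none fell, with a median of 0.10. Acot2 changed by -0.15 in controls (difference -1.86, limma adjusted p = 0.0379), Acot3 by 0.71 (difference -2.62, adjusted p = 0.0427) and Acot4 by 0.60 (difference -1.38, adjusted p = 0.0133). For Acot4 limma's adjusted p was 0.053 when only the knockout and control arrays at ZT8 and ZT12 were fitted. The differences of Acot2 and Acot3 were lost on leaving out any one of 6 and 8 arrays, with adjusted p up to 0.0855 and 0.133. Ppara changed by -0.05 in controls, and its difference of -0.64 was called only without replicate 3 (adjusted p = 0.136 with it, 0.00128 without it). The same held for Txnip, at -1.86 in controls and -2.86 in knockout (adjusted p of the difference 0.262 with it and 0.00356 without it). Me1 changed by 0.26 in controls, a difference of -1.56 (adjusted p = 0.0177; 0.0758 over the mean of its probes). Chaperones rose in controls as well, with 15 of 16 called there against 7 in knockout. The difference was called for Hspa8, at 1.09 in controls (difference -0.64, adjusted p = 0.0113), and Hsp90aa1, at 1.31 (difference -0.81, adjusted p = 0.0179; 0.0603 once a slide term was added).

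Trib3 fell in both genotypes, by 3.03 in controls, a difference of 1.75 (limma adjusted p = 0.0123). Hsd3b7, a bile acid synthesis enzyme, was the member of its list with a called difference with all arrays (0.70, adjusted p = 0.00768). It fell by 0.89 in controls against -0.19 in knockout. Without replicate 3 the bile acid list had 1 difference called positive and 2 called negative. Sesn1 had a difference of 0.55 (adjusted p = 0.023) and Ypel2 of 1.01 (1.84 and 0.83, adjusted p = 0.023), both lost without ZT8 replicate 5 (adjusted p up to 0.0569 for Sesn1 and 0.0547 for Ypel2 over the alternatives), that of Ypel2 also with normexp. Over all called genes well above background on the 24 arrays, the most positive differences were those of Trib3, Asap2 and Cdc42ep5. Asap2, an ARF GTPase-activating protein, changed by 1.48 in knockout and -0.22 in controls (difference 1.69, adjusted p = 0.00267; 0.0734 over the mean of its probes), and Cdc42ep5, an effector of CDC42, by 1.10 and -0.55 (difference 1.65, adjusted p = 0.001). Asap2 levels went from -2.59, -2.31 and -1.47 to -0.83, -0.68 and -0.60 in knockout, without overlap. Among the most negative were Gm26588 (difference -2.31, adjusted p = 0.0378, lost on leaving out any one of 8 arrays) and the small GTPase Rab30 (-2.39 and -0.22, difference -2.17, adjusted p = 0.0172), with Rab30 levels in knockout from -0.72, 0.75 and 2.20 to -2.65, -1.76 and -0.58. For Rab30 limma's adjusted p of the difference was 0.0686 when only the knockout and control arrays at ZT8 and ZT12 were fitted.

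**Figure D5:**
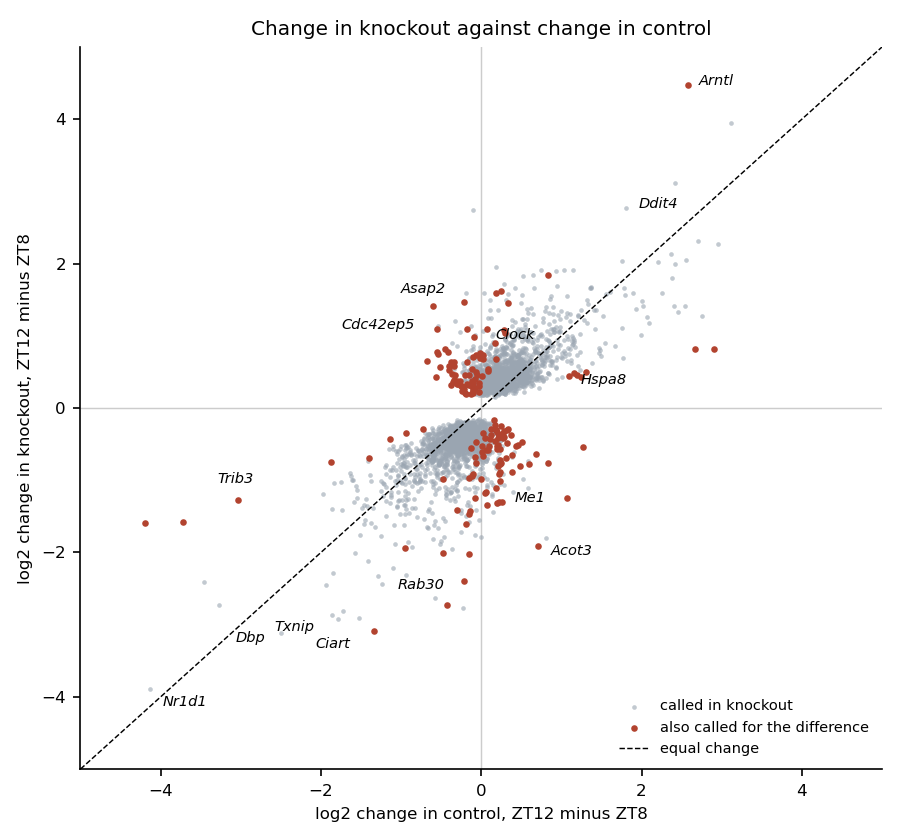
Change from ZT8 to ZT12 (log2) in knockout liver (vertical axis) against the change in control liver (horizontal axis) for the 3033 genes called in knockout, with larger red points for the 169 also called for the difference and a dashed line of equal change. Nr1d1 lies near the line (-3.89 and -4.13), while Clock, Asap2 and Cdc42ep5 lie above it.

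Few markers of other cells were called with all arrays, though many estimates were above 0. The estimates of all 3 red cell, 6 macrophage and 6 endothelial markers were positive, with medians of 0.57, 0.35 and 0.28 (0.65, 0.52 and 0.34 without replicate 3). Of 6 endothelial markers 1 rose, Clec4g (0.48, limma adjusted p = 0.00275), and 3 without replicate 3, with Lyve1 and Cdh5. Of the macrophage, fibroblast, bile duct, red cell, pancreas, fat cell, lymphocyte, dividing cell and muscle markers limma called none with all arrays, where 1 fibroblast and 1 red cell marker had an unadjusted p under 0.05. Without replicate 3, Krt19 of bile duct rose and 1 pancreas marker fell. The mean red cell marker level was 1.95 to 3.37 on ZT8 arrays and 3.04 to 4.65 on ZT12 arrays, and that of macrophage markers 0.89 to 2.28 and 1.09 to 2.81. Of the defining fat cell markers, Cfd was well above background on none of the 12 arrays and Adipoq on 1 ZT8 and 3 ZT12 arrays. Measured were 3 of 4 red cell, 3 of 6 pancreas, 4 of 5 lymphocyte, 4 of 5 dividing cell and 1 of 4 muscle markers listed, and every marker of the other lists. The part of these cells in any result was not tested.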

How the data were processed

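The series holds 36 single-colour Agilent mouse arrays, 6 for each genotype at ZT8, ZT12 and ZT16. Spot intensities, background-subtracted and detrended within each array, and flags were deposited by the authors as Feature Extraction output, per the file headers. The submitters' processing notes name Agilent Feature Extraction 10.10.1.1 and limma. A table of log2 values deposited by the authors, with 32801 probes, served as an alternative, and how it was normalized is not given in the sources used here. Probe positions are on mm9 (NCBI37), per the file headers.

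The level used here is log2 of the processed intensity minus each array's 75th percentile over spots that are not controls. Probes well above background on at least 6 of 36 arrays were kept (34771 of 56605, with 91 lacking a value on some array left out), and each of 22884 genes was represented by its brightest probe. The means of the 6 groups and a wash batch effect were fitted in limma 3.58.1 (R 4.3.3; lmFit and eBayes, 28 residual and 2.25 prior degrees of freedom), with Benjamini-Hochberg adjustment over all genes and a threshold of 0.05. All 36 arrays share 1 estimate of the spread. Single values were also tested by an exact two-sided permutation test of 6 against 6 arrays, whose smallest p is 0.002165. Tables were handled in Python 3.11.15 with pandas 2.3.3.

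The fitting step was tested on simulated data with independent normal noise and no array set apart as ZT8 replicate 3 is. Of changes of 0.5, 1 and 2 on the log2 scale it recovered 47.8%, 85.1% and 97%, and it called 6 unchanged genes. The called genes examined singly had 66 further probes well above background on all 12 arrays, and 5 of these, in 4 genes (Cry2, Dnajb11, Map1lc3b and Slco1b2), had the opposite sign to the main probe.

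Replicate numbers were checked for pairing: the correlations of same-numbered ZT8 and ZT12 deviations were -0.049, 0.117, -0.337, -0.016, 0.008 and -0.072, so the numbers were not taken to pair samples.

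The members and gene lists were chosen with earlier results of these data known, so list counts and medians carry no test of their own. Genes named are Insr; the 10 largest rises and falls that were called with and without ZT8 replicate 3, well above background on all 12 arrays and not overlapping apart from that replicate; clock genes; the up to 4 members of each other list with the smallest p and members of role groups counted; the 3 most positive and 3 most negative called differences from controls; and up to 5 called genes on which ZT8 replicate 3 lay farthest from the other ZT8 arrays. Other genes named were picked after their values were seen, and are included in the 138 genes examined singly under every alternative; a few members of the lists are counted with their list but not reported here by name. Alternatives were leaving out each of the 12 knockout replicates in turn, but no control array. Others were background correction with normexp (offset 50), quantile normalization, the authors' table, all probes averaged and other filters. Also used were slide or replicate number as a block, array weights, a robust trended prior, no wash batch, and fits of only the groups compared. The last of these without ZT8 replicate 3 was added after seeing the data. Promoter motifs were searched in RefSeq windows of 300 bases (GRCm38.p6).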

Additional observations from a re-analysis of the deposited data

Results flagged for a closer look

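Among 276 groups of 6 arrays (138 genes at 2 times), 33 had a highest or lowest array whose gap to the nearest other, as a share of the group's range, exceeded Dixon's 95% limit. Chance flags about 1 in 20 groups, and 19 of the 33 lie on ZT8 knockout replicate 3. These genes were partly picked because that array lay apart, so the count is a description and is not set against chance. On that array the levels were 4.21 for Txnip, 1.58 for Klf10, 0.34 for Nfil3, 2.89 for Nr1d2, 2.05 for Bhlhe40, 5.62 for Hspa8, 5.03 for Creb3l3, 6.57 for Slco1b2, 1.46 for Atg14, 3.23 for Cyp3a13, 1.49 for Nr1i3, 1.43 for Irs1, 2.12 for Dnajc3, 5.92 for G6pc, 6.55 for Gys2 and 4.94 for Hadhb, each below the other 5 ZT8 knockout arrays. They were 4.20 for Creld2, 1.85 for Fos and -3.23 for Clba1, each above the others. Fos, an immediate early gene, spanned -0.21 to 0.53 on the other 5.

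On ZT12 knockout replicate 1, Rgs16 was at 1.06 and Me1 at 2.10, below the others, and H3c15 was at 0.34 and Bhlhe41 at -6.86, above the others. Nr4a2 was at -0.64 on ZT12 replicate 4, with the others at -2.54 to -1.92, and the splicing factor gene Srsf5 was at 4.05 on ZT12 replicate 6, with the others at 4.36 to 4.49. Fbxw15 was at -2.47 on ZT12 replicate 1, Srebf1 at 4.62 on replicate 4, and the dim fat cell markers Adipoq at -6.92 on replicate 6 and Cfd at -7.51 on replicate 2. At ZT8, Cpt2 was at 5.76 and Acot2 at 3.14 on replicate 2, Hsp90aa1 at 3.87 on replicate 1 and Polr1b at 0.38 on replicate 5.

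The change from ZT8 to ZT12 differed between knockout and control for 19 of these genes in limma's test of that difference. It was more positive in knockout for Arntl (1.90), Clock (0.71), Ypel2 (1.01), Sesn1 (0.55), Trib3 (1.75), Asap2 (1.69), Cdc42ep5 (1.65) and Hsd3b7 (0.70). Bhlhe41 also had a positive difference of 2.15 (adjusted p = 0.00736), but its knockout signal was not well above background, so this is no measured size. It was more negative for Ciart (-1.75), Gm26588 (-2.31), Hspa8 (-0.64), Hsp90aa1 (-0.81), Acot2 (-1.86), Acot3 (-2.62), Acot4 (-1.38), Me1 (-1.56), Cpt2 (-0.49) and Rab30 (-2.17). The adjusted p of these differences ran from 0.001 (Cdc42ep5) to 0.0427 (Acot3).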

How the results depend on the processing

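The count of 3033 genes was 615 when only the 12 arrays were fitted, and under the other settings lay between 2298 (no filter on dim probes) and 3913 (array weights). Leaving out single arrays gave 2120 (without ZT8 replicate 5) to 4316 (without ZT8 replicate 3). The 287 genes called for the difference from controls became 939 with array weights, 190 over the mean of all probes, 133 without a filter on dim probes, 169 with slide as a fixed block and 943 with only the groups compared and 5 ZT8 knockout arrays. Leaving out single arrays gave 143 (without ZT8 replicate 5) to 942 (without ZT8 replicate 3), with 187 without ZT12 replicate 1 and 175 without ZT8 replicate 2. With the replicate block 3177 genes were called, and 240 for the difference. The clock list's median was -0.25 in the authors' deposited values and -0.71 with only the groups compared and 5 ZT8 arrays, where that of insulin signalling was -0.35. The glucocorticoid list's median was 0.45 with normexp, 0.62 with only the groups compared and 0.55 with those and 5 ZT8 arrays. Of 104 called genes examined singly, 40 remained called under all alternatives, 80 on leaving out any one array and 42 when only the 12 arrays were fitted, and 1 changed sign, Dnajb11 (-0.57 over the mean of its probes). Of the 19 called differences, 5 remained under all alternatives, none of which left out a control array: Clock, Hspa8, Trib3, Cdc42ep5 and Hsd3b7. Signals near background limit the size of a change: with normexp 16 of the 104 moved by over 1.5 times and in the authors' deposited values 11, with 10 in both (Arntl, Bhlhe41, Clba1, Cry1, Fbxw15, Fgf21, Gm10804, Gm16246, Nat8f5 and Zbtb21).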
